A study of Mus musculus with 9 samples.

Results

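The comparison of 10 nM with 1 nM calcitriol in C2C12 cells used 6 of the 9 arrays of the series. Its members were the 3 samples whose labels give a dose of 10 nM and the 3 whose labels give 1 nM. The labelled agent is 1,25 (OH)2-vitamine D3, which is calcitriol, and all samples were collected 72 h into treatment. The other 3 samples of the series received vehicle for the same time, and their levels are shown beside the doses. They also entered some alternative fits and the choice of some genes named for not moving between the doses. C2C12 is an established mouse myoblast line whose cells fuse into myotubes, and the series title calls the cells murine myotubes. The labels give no transgene, deletion or second agent in any group, and no day of differentiation. All 6 cultures therefore carried the hormone, and the comparison asks which transcripts still differed when its concentration went from 1 to 10 nM and which did not.

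Calcitriol is the hormone form of vitamin D. It binds the vitamin D receptor, which pairs with a retinoid X receptor on DNA and recruits coactivators or corepressors, and one of the strongest known target genes encodes the enzyme that degrades calcitriol. In muscle cells in culture the hormone is known for slowing proliferation and for changing differentiation and metabolism. Total RNA was labelled with a single dye and hybridised to 1 array per sample. Each value below is a level, the log2 of a probe's processed signal over its array's 75th percentile, so 0 is the signal at that percentile and a difference of 1 is a 2-fold change. Levels compare samples for the same gene and not genes with each other, since probes differ in brightness.

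The share of spots well above background was 67.1 to 77.7% on the 6 dose arrays, the 75th percentile of signal ran from 2826 to 3389, and no spot was saturated. Replicate arrays correlated at 0.9942 to 0.9975 within 1 nM and at 0.9916 to 0.9937 within 10 nM. Arrays of unlike dose correlated at 0.9905 to 0.995, so the arrays did not separate by dose on this measure. For example, 10 nM replicate 2 correlated at 0.995 with 1 nM replicate 2 and at 0.9932 and 0.9937 with the other 10 nM arrays. The array of 10 nM replicate 3 stood apart from the other 5, at 53.3 on the leading principal component (41.2% of the variance) against -25.4 to 8.94. It was also alone on its slide, while both doses of replicate 1 shared a slide with 2 vehicle arrays and both doses of replicate 2 shared another with 1 nM replicate 3 and a vehicle array. Counts are therefore given below also without that array. Vehicle replicate 3 had 96.4% of its spots above background and 6124 spots marked as non-uniform, against 8 to 56 on the dose arrays. Its values for dim genes are therefore less certain. The main fit between the doses did not use it, but the alternative fit of all 9 arrays did. The design text of the series calls the 3 replicates of a condition biological, and nothing else used here says how the cultures were kept apart, so the p-values measure the spread between these 6 samples.

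Markers of the labelled muscle cell type were present. All 8 muscle markers examined were measured in every group. Myogenin (Myog), a transcription factor of muscle differentiation, was at 4.22, 4.33 and 4.31 with 1 nM and at 3.91, 4.03 and 4.05 with 10 nM. Skeletal actin (Acta1) was at 6.59, 6.51 and 6.78 at 1 nM and at 6.66, 6.60 and 6.57 at 10 nM, and embryonic myosin heavy chain (Myh3) was at 6.55, 6.66 and 6.52 at 1 nM and at 6.61, 6.65 and 6.69 at 10 nM. The summed signal of the 8 markers, on the same log2 scale, was 8.23 to 8.30 at 1 nM and 8.27 to 8.31 at 10 nM, so the ranges overlapped.

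The measurement behind each gene is the signal of a 60-base probe. The probes of the genes on which the results turn most are shown here, 5′ to 3′ as the deposited array files list them and with their mm9 position in those files, because a second probe of the same gene did not always give the same difference. No gene model of that build was used here, so exon and UTR are not stated.
Cyp24a1, chr2:170308865-170308924, minus strand: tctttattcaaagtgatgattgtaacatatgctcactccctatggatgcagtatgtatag
Vdr, chr15:97685136-97685195, minus strand: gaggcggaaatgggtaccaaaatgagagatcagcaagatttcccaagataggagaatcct
Adipoq, chr16:23157576-23157635, plus strand: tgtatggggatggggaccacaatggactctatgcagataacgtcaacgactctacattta
Cyp26b1, chr6:84521952-84522011, minus strand: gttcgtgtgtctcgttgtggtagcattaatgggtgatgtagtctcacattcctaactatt
Postn, chr3:54194840-54194899, plus strand: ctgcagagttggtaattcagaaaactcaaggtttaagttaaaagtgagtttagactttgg
Ptn, chr6:36691376-36691435, minus strand: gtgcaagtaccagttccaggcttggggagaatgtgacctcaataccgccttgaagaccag
Bhmt, chr13:94386856-94386915, minus strand: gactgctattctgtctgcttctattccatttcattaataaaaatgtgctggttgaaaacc
Bhmt, second probe, chr13:94395097-94395156, minus strand: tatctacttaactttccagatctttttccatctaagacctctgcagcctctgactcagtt

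Of 21515 genes tested, 1393 (6.47%) were called different between the doses by limma at an adjusted p of 0.05, 674 higher at 10 nM (3.13%) and 719 lower (3.34%). Most of these differences were small. Of the called genes 703 differed by under 1.5-fold, 480 by 1.5- to 2-fold, 188 by 2- to 4-fold and 22 by more, and 18 of those 22 were higher at 10 nM. The 210 genes (0.976%) called with at least a 2-fold difference were 116 higher (0.539%) and 94 lower (0.437%). The median difference over all genes was -0.01. At the other end, 13010 genes (60.5%) had a 95% interval of the dose difference that lay wholly within 0.5 either side of 0, called the margin below; 155 genes were both called and inside it. For 7267 genes neither statement could be made. The list counts below stand beside these shares of all genes, 6.47% called and 60.5% within the margin. At an unadjusted p of 0.05 the count was 3720, and the 3 levels of each dose did not overlap for 5231 genes (24.3%).

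The number of calls moved with the arrays used and the settings. Without 10 nM replicate 3 it was 785, and leaving out 1 of the other 5 arrays gave 478 to 798. Blocking on the replicate number gave 771 calls, and blocking on the slide gave 1133. Scaling each array on its median signal in place of its 75th percentile gave 561. No count is given within a slide, since slide 1 held 1 array of each dose and slide 2 only 1 at 10 nM. A core of 397 genes, 227 higher and 170 lower, kept its call with the replicate block and without each of the 6 arrays in turn. That is 28.5% of the calls and 1.85% of all genes, and 167 of them differed at least 2-fold. Genes named below belong to this core unless the text says otherwise. The core was not checked against scaling. Array median scaling ended the calls of 45 of the 125 called genes taken by the naming rule given under processing. Akt2, Vim, Hsd17b7, Pparg, Fgfr4, Spry1 and Vcam1, all in the core, were among them (adjusted p from limma = 0.0548 to 0.183). The plot of the dose difference against level shows that calls occurred over the whole range of levels.

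**Figure D1:**
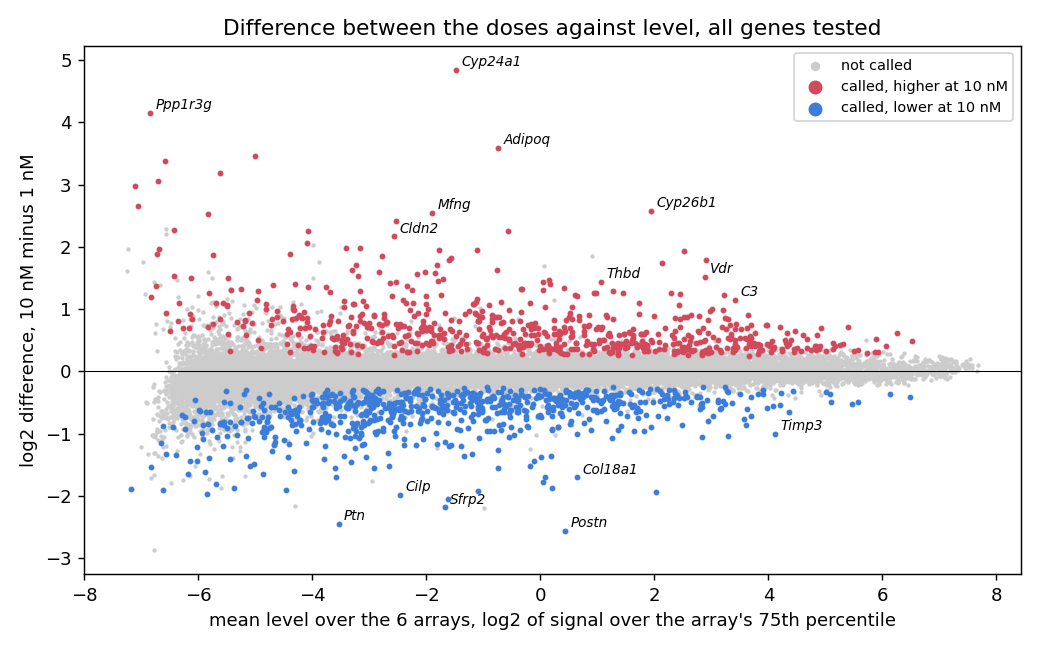
Difference between the doses (10 nM minus 1 nM, log2) on the vertical axis against the mean level over the 6 dose arrays (log2 of signal over the 75th percentile) on the horizontal axis, 1 point for each of 21515 genes. Coloured points are the 674 genes called higher and the 719 called lower; Cyp24a1 lies highest, at 4.84, and the median of all points is -0.01.

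The receptor and the enzyme that removes its ligand both rose with the dose. Cyp24a1, the hydroxylase that starts the breakdown of calcitriol, was at -3.87, -3.76 and -4.05 in the 1 nM samples and at 0.96, 0.92 and 0.95 in the 10 nM samples. That is 28.6-fold higher (log2 difference 4.84, SE 0.086, adjusted p = 0.000139), far outside the spread of either group. Vehicle samples were at -5.41, -4.65 and -5.51, below both doses. Vdr, the receptor, was at 2.07, 2.19 and 2.12 at 1 nM, where the vehicle samples also lay (1.94, 2.08 and 2.06), and at 3.59, 3.65 and 3.68 at 10 nM. It was 2.86-fold higher (log2 difference 1.52, SE 0.061, adjusted p = 0.000712). Within slide 1 and slide 2 the log2 difference was 4.83 and 4.83 for Cyp24a1 and 1.52 and 1.5 for Vdr.

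The rest of the receptor's axis gave no call. Of 15 measured members of 16, 2 were higher, none was lower and 8 lay within the margin, with a median of 0.13. The share within the margin, 53.3%, was below the 60.5% over all genes, so the list was not especially steady. Among the partners of the receptor, Rxrb was at 3.10, 3.27 and 3.26 at 1 nM and 3.36, 3.48 and 3.45 at 10 nM, a difference of 0.22 with an interval of 0.04 to 0.40. The corepressor Ncor1 differed by 0.04 (-0.15 to 0.23). Cyp27b1, the enzyme that makes calcitriol, differed by 0.14, with an interval (-0.40 to 0.68) that leaves a difference of either sign possible.

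Of 20 genes listed as targets of vitamin D in other tissues, 19 were measured, and 4 were higher and 2 lower (4 and 1 without 10 nM replicate 3; median 0.05). Cldn2, which forms a pore in tight junctions, was at -3.65, -3.79 and -3.49 and then at -1.47, -1.54 and -1.43, 4.49-fold higher (log2 difference 2.17, SE 0.091, adjusted p = 0.000734). Thbd, thrombomodulin, an anticoagulant receptor, went from 0.43, 0.32 and 0.27 to 1.77, 1.73 and 1.84 (2.71-fold, adjusted p = 0.000962), and vehicle samples were far lower, at -2.40, -2.49 and -2.55. Igfbp3, which binds insulin-like growth factors, was 1.75-fold higher (log2 difference 0.81, SE 0.079, adjusted p = 0.0058). All 3 genes were higher at 10 nM in every sample, with no overlap between the doses, as held for all 1393 called genes. Tnfsf11, the cytokine RANKL, was not well above background on any 1 nM array and was so on all 3 at 10 nM. On the processed signal it was at least 1.8-fold higher, with a lowest log2 difference of 0.59 under other settings. Its adjusted p (0.00948, and 0.0566 without 1 nM replicate 3) rests on 1 nM signal below background and adds no support. S100g, a calcium-binding protein, was at -8.34, -8.54 and -5.80 in vehicle, -0.45, -0.48 and -0.68 at 1 nM and -0.11, -0.22 and -0.31 at 10 nM, with no call between the doses (adjusted p = 0.133, interval 0.09 to 0.55).

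The 15 genes with the largest rise are a mixed group in which several were barely measurable at 1 nM. Adipoq, the hormone adiponectin, was at -2.55, -2.42 and -2.66 at 1 nM and at 0.99, 1.03 and 1.13 at 10 nM, 12.04-fold higher (log2 difference 3.59, SE 0.083, adjusted p = 0.000293). Cyp26b1, which oxidises retinoic acid, was at 0.59, 0.83 and 0.53 at 1 nM and at 3.33, 3.13 and 3.22 at 10 nM (5.97-fold, log2 difference 2.58, SE 0.10, adjusted p = 0.000712). For both genes every 10 nM sample lay above every 1 nM sample, which the choice of these 15 genes required. Mfng, a sugar transferase that modifies Notch receptors, was at -3.20, -3.14 and -3.18 at 1 nM and -0.56, -0.74 and -0.56 at 10 nM (5.86-fold, adjusted p = 0.000527), and a second probe of it gave a log2 difference of 3.91 instead of 2.55.

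Bhmt, which remethylates homocysteine, was at -3.63, -3.80 and -3.79 at 1 nM and -1.40, -1.32 and -1.28 at 10 nM, 5.32-fold higher (log2 difference 2.41, SE 0.073, adjusted p = 0.000527). Of its 4 kept probes 3 gave 2.41, 2.65 and 2.18, and the second probe printed above gave -0.05. Myo15, an unconventional myosin, was at -4.99, -5.28 and -5.34 at 1 nM and -2.79, -3.09 and -3.00 at 10 nM (4.74-fold, adjusted p = 0.00142). Mov10l1, an RNA helicase known from germ cells, was 4.17-fold higher (adjusted p = 0.00235).

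For 5 genes no 1 nM array was well above background while all 3 arrays at 10 nM were. A bound is therefore given, the 10 nM mean over the 1 nM detection floor, which holds for the processed signal only. Under other settings the lowest log2 difference was 1.31 for Ppp1r3g, 1.04 for Ppy, 0.92 for Nppc, 0.79 for Itgax and 0.71 for Klhl29. Each of these is smaller than the gene's bound. Ppp1r3g, which targets protein phosphatase 1 to glycogen, was at least 4.46-fold higher (adjusted p = 0.000712). Ppy, pancreatic polypeptide, was at least 4.79-fold higher, Nppc, C-type natriuretic peptide, at least 3.35-fold, Itgax, the integrin chain CD11c, at least 2.45-fold, and Klhl29 at least 2.30-fold. All 5 passed the filter only through their 10 nM arrays. Their adjusted p-values and place in the core rest on 1 nM signal below background and add no support. Nppc alone left the core. Its adjusted p was 0.0181 in all 6 arrays, 0.0668 with the replicate block and 0.0735 with the slide block. It was 0.058 without 10 nM replicate 3 and up to 0.0775 without another array. Ppp1r14d, an inhibitor of the same phosphatase, and Slc6a18, an amino acid transporter, passed the background mark on 1 of 3 arrays at 1 nM and on all 3 at 10 nM. These also passed the filter only through 10 nM, and under other settings their lowest log2 differences were 1.85 and 1.46. Their place in the core rests in part on 1 nM signal below background and adds no support. Their levels went from -6.59, -6.76 and -6.86 to -3.07, -3.63 and -3.12 and from -7.48, -7.72 and -6.43 to -3.85, -4.11 and -4.11. A second Slc6a18 probe gave a log2 difference of 1.99 against 3.19. Many of these dim genes were brighter on vehicle replicate 3 than on the other vehicle arrays, as the plot of the 30 genes shows.

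**Figure D2:**
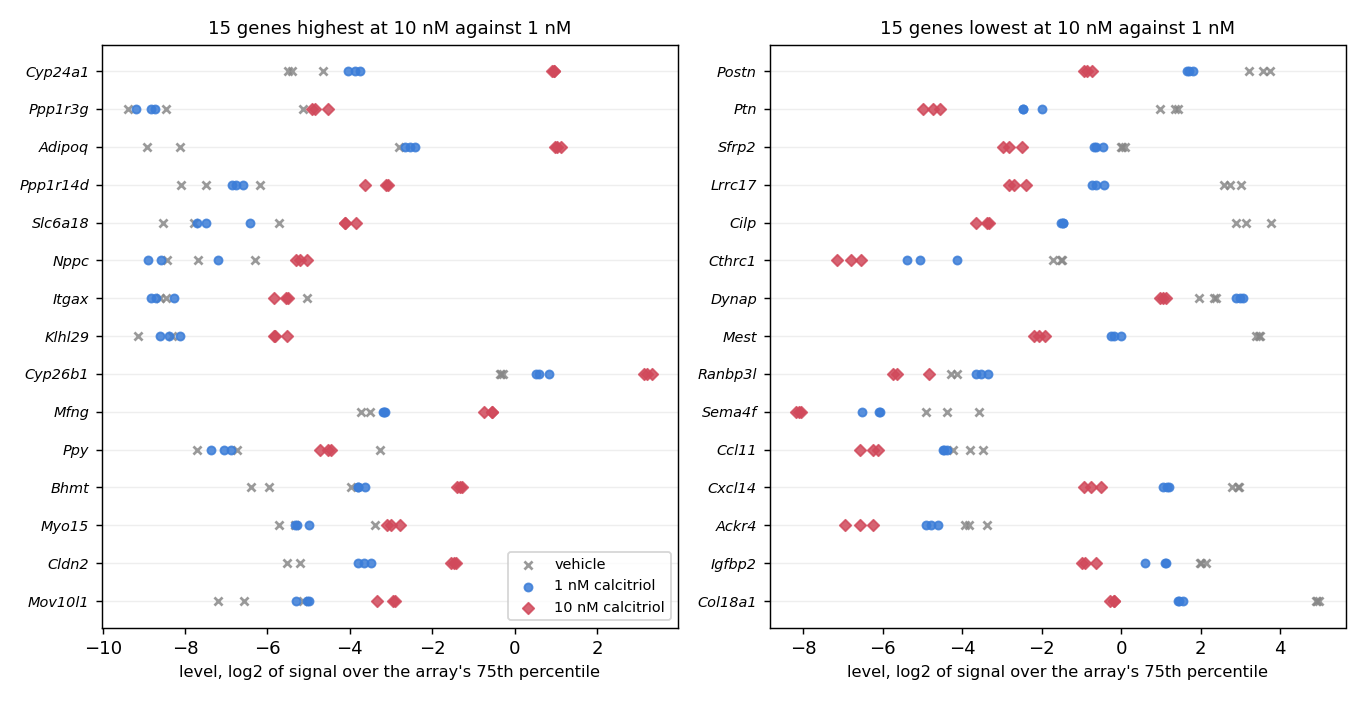
Level in each of the 9 samples (horizontal axis, log2 of signal over the array's 75th percentile) for the 15 genes highest and the 15 lowest at 10 nM against 1 nM among called genes; crosses are vehicle, circles 1 nM and diamonds 10 nM. The 3 diamonds lie clear of the 3 circles for every gene because only such genes were taken. Dynap, Ranbp3l and the dimmest genes have vehicle levels that do not continue the order of the doses.

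Beside Cyp26b1, other genes of retinoid handling rose. Of 13 measured members of 15, 4 were higher and 1 lower, 4 and 0 without 10 nM replicate 3, with a list median of 0.06. Dhrs3, which reduces retinal to retinol, was at 1.29, 1.33 and 1.16 at 1 nM, close to vehicle (1.11, 1.17 and 1.02), and at 3.07, 2.91 and 3.03 at 10 nM, 3.36-fold higher (log2 difference 1.75, SE 0.077, adjusted p = 0.000775). Crabp2, which carries retinoic acid to the nucleus, rose 1.64-fold (log2 difference 0.71, SE 0.081, adjusted p = 0.00852). The other retinoic acid hydroxylase of the list, Cyp26a1, differed by 0.27 (adjusted p = 0.0733). Aldh1a3, which makes retinoic acid, was at -4.60, -4.92 and -4.71 at 1 nM and -5.71, -6.46 and -7.11 at 10 nM, a wide spread, and did not pass (adjusted p = 0.0566).

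Among the 15 genes with the largest fall, Postn, the matrix protein periostin, was at 1.66, 1.8 and 1.71 at 1 nM and at -0.93, -0.73 and -0.85 at 10 nM, 5.90-fold lower (log2 difference -2.56, SE 0.077, adjusted p = 0.000527). In vehicle it was at 3.56, 3.75 and 3.22, so the levels were ordered by dose with no overlap. Ptn, pleiotrophin, a heparin-binding growth factor, was at -1.98, -2.48 and -2.48 at 1 nM and -4.55, -4.74 and -4.99 at 10 nM (5.44-fold lower, log2 difference -2.44, SE 0.18, adjusted p = 0.00251) against 1.44, 1.35 and 0.99 in vehicle. Cilp, a cartilage matrix protein, was 3.95-fold lower (log2 difference -1.98, SE 0.097, adjusted p = 0.000986) and Lrrc17, a secreted leucine-rich repeat protein, 4.12-fold lower (log2 difference -2.04, SE 0.13, adjusted p = 0.00173).

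Mest, an imprinted gene, was at -0.17, -0.26 and -0.01 at 1 nM and -2.20, -1.91 and -2.06 at 10 nM against 3.49, 3.48 and 3.39 in vehicle, 3.76-fold lower between the doses (adjusted p = 0.0013); its other 2 kept probes gave -1.84 and, for the dimmer, -1.30 against -1.91. Igfbp2, a binding protein of insulin-like growth factors, was 3.43-fold lower (log2 difference -1.78, SE 0.18, adjusted p = 0.00616). Sema4f was not well above background on any 10 nM array and passed the filter only through 1 nM. On the processed signal it was at least 1.56-fold lower, with a smallest log2 difference of -0.39 under other settings. Its adjusted p (0.0024) rests on 10 nM signal below background and adds no support. Cthrc1 and Ranbp3l were outside the core. Cthrc1 was above background on 1 of 3 arrays at 10 nM and passed the filter only through 1 nM. It had an adjusted p of 0.0343, but of 0.0618 to 0.117 without any array other than 1 nM replicate 1. Ranbp3l had 0.0138, but 0.0524 to 0.0745 without each 1 nM array or 10 nM replicate 2. Over the 15 highest and 15 lowest genes, 29 passed with the slide block and 28 without 10 nM replicate 3.

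Of 47 measured members of 50 on the matrix list, 17 were lower and 2 higher, with a median of -0.26 beside -0.01 over all genes (13 lower and 1 higher without 10 nM replicate 3, 9 and 1 with median scaling, 11 and 1 in the core). Collagens were found on both sides. Col18a1, a basement membrane collagen, was at 1.47, 1.44 and 1.56 at 1 nM and -0.17, -0.18 and -0.27 at 10 nM, 3.24-fold lower (log2 difference -1.70, SE 0.062, adjusted p = 0.000712). The 3 chains of collagen VI, which surrounds muscle fibres, each fell, with log2 differences of -0.95 for Col6a1, -0.92 for Col6a2 and -1.0 for Col6a3. Lama4, a laminin chain, was 3.12-fold lower (log2 difference -1.64, SE 0.14, adjusted p = 0.00398) and Col12a1 1.91-fold lower (log2 difference -0.93, SE 0.050, adjusted p = 0.00118).

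The fibril collagen genes Col1a2 and Col3a1 and fibronectin lay within the margin. Col1a2 was at 6.0, 6.25 and 6.22 at 1 nM and 6.08, 6.32 and 6.07 at 10 nM, a difference whose interval was -0.26 to 0.27. For Col3a1 the interval was -0.22 to 0.10 and for Fn1, fibronectin, -0.26 to 0.19. Col16a1 went the other way, from 2.42, 2.58 and 2.53 to 3.36, 3.61 and 3.57 (2.01-fold higher, log2 difference 1.0, SE 0.089, adjusted p = 0.00433). Among matrix metalloproteinases and their inhibitors 3 of 20 were higher and 3 lower (3 and 2 without 10 nM replicate 3; median 0.04). Mmp13, a collagenase, rose 2.40-fold (0.79, 0.96 and 0.68 to 2.08, 2.06 and 2.09; log2 difference 1.26, SE 0.084, adjusted p = 0.00185), and the inhibitor Timp3 was 2.01-fold lower (4.59, 4.61 and 4.69 to 3.64, 3.62 and 3.60; log2 difference -1.01, SE 0.055, adjusted p = 0.00129). Some genes were picked for mention after their values were seen. Above these are Myog, Acta1, Myh3, Rxrb, Ncor1, Cyp27b1, S100g, Cyp26a1, Aldh1a3, Lama4, the collagen VI chains, Col1a2, Col3a1, Fn1 and Col16a1. Below they are Top2a, Ccna2, Il6, Cxcl5, Ccl8, Ccl9, Il33, Tnfaip3, Mcm2, Pcna, Tpx2, Plin1, Ckm, Cox4i1, Atp5b and Myod1.

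Chemokines and cytokines had a list median of -0.49 (-0.45 without 10 nM replicate 3 and -0.43 with the slide block). Of 28 measured members of 35, 15 were lower and none was higher (13 and 0 without 10 nM replicate 3, 8 and 0 with median scaling; 10 lower in the core). Ccl2, which attracts monocytes, was at 0.63, 0.58 and 0.54 with 1 nM and at -1.04, -0.75 and -1.03 with 10 nM, 2.88-fold lower (log2 difference -1.53, SE 0.094, adjusted p = 0.00153). Vehicle samples, at -1.17, -1.46 and -0.99, lay with the 10 nM samples and not with the 1 nM samples. Cxcl1, a neutrophil attractant, was also highest at 1 nM, but its 10 nM samples lay below vehicle. It was at -3.98 and -3.91 on the 2 vehicle arrays with a value, -2.63, -2.87 and -2.68 at 1 nM and -4.30, -4.54 and -4.43 at 10 nM (3.23-fold lower, log2 difference -1.69, SE 0.099, adjusted p = 0.00145).

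Cxcl5 and Ccl8 stayed above vehicle at both doses but were lower at 10 nM. Cxcl5 was at -2.73, -2.84 and -2.77 in vehicle, 0.28, -0.10 and -0.09 at 1 nM and -1.52, -1.47 and -1.58 at 10 nM (2.94-fold lower between the doses, adjusted p = 0.00262), and Ccl8 was 2.07-fold lower (adjusted p = 0.00542). Il6, an inflammatory cytokine, fell stepwise, from -1.26, -1.50 and -1.33 in vehicle to -3.62, -3.46 and -3.50 at 1 nM and -5.23, -4.85 and -5.30 at 10 nM (3.02-fold lower between the doses, log2 difference -1.59, SE 0.13, adjusted p = 0.00357). Cxcl14 was 3.64-fold lower (log2 difference -1.87, SE 0.12, adjusted p = 0.00172). Ccl11, eotaxin, and Ackr4, a receptor that removes chemokines, were 3.67- and 3.51-fold lower, and 2 of the 3 arrays at 10 nM still measured them above background. Both passed the filter only through 1 nM, and under other settings their smallest log2 differences were -0.91 and -0.78. Their place in the core rests in part on 10 nM signal below background and adds no support. Smaller falls were called for Ccl9 (-0.65), the alarmin Il33 (-0.82) and Tnfaip3, an inhibitor of NF-kappaB signalling (-0.65), in log2. Of 24 measured genes of interferon response and antigen presentation 1 was lower and none higher, and none was called with the replicate block or without 10 nM replicate 3.

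Some genes of the cell cycle were lower at 10 nM than at 1 nM. Of 37 measured members of 43, 16 were lower, none was higher and 13 lay within the margin (12 lower and 0 higher without 10 nM replicate 3; 7 lower in the core), with a median of -0.44. With arrays scaled on the median signal the count was 6 lower and the list median -0.40. Mki67, a marker of proliferating cells, was at 3.13, 3.24 and 3.08 in vehicle, -1.33, -1.48 and -1.18 at 1 nM and -2.31, -2.27 and -2.38 at 10 nM, 1.99-fold lower between the doses (log2 difference -0.99, SE 0.091, adjusted p = 0.0049). Bub1b, a mitotic checkpoint kinase, was 2.02-fold lower (log2 difference -1.01, SE 0.079, adjusted p = 0.00279) and Birc5, survivin, 1.68-fold lower (log2 difference -0.75, SE 0.075, adjusted p = 0.00624). Top2a, Uhrf1 and Ccna2 also fell, with log2 differences of -0.96, -0.78 and -0.64.

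Several replication factors lay within the margin. Mcm2, a helicase subunit, was at -1.25, -1.34 and -1.18 at 1 nM and -1.28, -1.43 and -1.28 at 10 nM (interval -0.26 to 0.11), and Pcna, the polymerase clamp, differed by 0.09 (-0.04 to 0.21). Tpx2, a spindle assembly factor, had 1 discordant array, at -1.46, -3.20 and -3.65 with 10 nM, so its interval ran from -1.41 to 1.42. Of 13 cell cycle inhibitors 10 lay within the margin and 1 was called, Gadd45g, a stress-response gene outside the core (1.44-fold lower, adjusted p = 0.011, and 0.0637 and 0.0554 without 1 nM replicates 2 and 3). In bulk RNA, fewer cells of a kind and less RNA per cell cannot be told apart.

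Genes of growth factor and developmental signals were also among those lower at 10 nM. In the Wnt list 7 of 23 measured members were lower and 1 higher (7 and 1 without 10 nM replicate 3; 3 lower in the core; median -0.11). Sfrp2, a secreted Wnt modulator, was at -0.67, -0.63 and -0.46 at 1 nM and -2.82, -2.50 and -2.98 at 10 nM, 4.53-fold lower (log2 difference -2.18, SE 0.14, adjusted p = 0.00168). Lgr5, a receptor that raises Wnt signalling, was 1.76-fold lower (log2 difference -0.82, SE 0.066, adjusted p = 0.00313). The member called higher was Sfrp4, with a log2 difference of 0.96. Its adjusted p was 0.0362 with the replicate block, but 0.0552 without 1 nM replicate 2, so it was outside the core. Among Notch, TGF-beta and BMP response genes 8 of 30 were lower and none higher (6 and 0 without 10 nM replicate 3; 4 in the core; median -0.11). Gdf6, a BMP family ligand, was 2.56-fold lower (log2 difference -1.36, SE 0.081, adjusted p = 0.00145) and Inhba, the activin A subunit, 1.91-fold lower (log2 difference -0.94, SE 0.053, adjusted p = 0.00142). Of 19 myoblast and satellite cell genes 4 were lower and 1 higher (4 and 1 without 10 nM replicate 3; 3 and 1 in the core; median -0.08). Id2, which holds back differentiation, was 1.8-fold lower, and Fgfr4 and Spry1 were 1.57- and 1.57-fold lower, while Vcam1 was 1.49-fold higher (adjusted p = 0.00167, 0.00416, 0.00279 and 0.00568).

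Markers of other mesenchymal cells differed beside these lists. Of 12 measured fibroblast and smooth muscle markers (17 listed) 6 were lower and 1 higher (3 and 0 without 10 nM replicate 3), and the summed signal of the list ran from 8.05 to 8.13 at 1 nM and from 7.69 to 7.72 at 10 nM, against 8.77 to 8.81 in vehicle. Pi16 was 2.27-fold lower (log2 difference -1.19, SE 0.11, adjusted p = 0.00484), Ly6a, the surface protein Sca-1, 2.10-fold lower (log2 difference -1.07, SE 0.085, adjusted p = 0.00296) and Vim, vimentin, 1.43-fold lower (log2 difference -0.52, SE 0.052, adjusted p = 0.00648). The fibroblast marker Dpt was not above background on any dose array. Of 15 osteoblast and chondrocyte markers 4 were lower and 1 higher (2 and 0 without 10 nM replicate 3), and Col2a1 was not above background. Their summed level was 5.27 to 5.31 at 1 nM and 5.16 to 5.23 at 10 nM, both above the 4.54 to 4.73 of vehicle. Phex, a protease of phosphate balance, was at -4.20, -4.34 and -4.33 at 1 nM, above vehicle (-5.18, -5.09 and -5.28), and at -5.84, -5.69 and -5.79 at 10 nM, below it (2.80-fold lower between the doses, log2 difference -1.48, SE 0.071, adjusted p = 0.000962). Runx2, the osteoblast transcription factor, was 1.76-fold lower (adjusted p = 0.00512). Of 15 immune, endothelial and glial markers 1 was lower, and Lyz2 and Emcn were not above background; the summed level was 4.52 to 4.69 at 1 nM and 4.45 to 4.87 at 10 nM. The part of these markers in the matrix, chemokine and cell cycle results was not tested.

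Adipocyte markers had a list median of 0.38. Of 14 measured members of 16, 5 were higher and none lower (5 and 0 without 10 nM replicate 3; 4 in the core; 3 with median scaling and 1 in the fit that also used the vehicle arrays). Beside Adipoq, the adipogenic transcription factors Cebpa and Pparg were 1.65- and 1.47-fold higher (log2 difference 0.72, SE 0.050, adjusted p = 0.00202, and log2 difference 0.55, SE 0.056, adjusted p = 0.00667). Cebpa was at 0.09, 0.07 and 0.03 at 1 nM and 0.80, 0.76 and 0.79 at 10 nM. Pparg was at -0.91, -0.99 and -0.92 at 1 nM and -0.43, -0.40 and -0.34 at 10 nM. Klf15 was 1.68-fold higher (log2 difference 0.75, SE 0.070, adjusted p = 0.00519). The lipid droplet gene Plin1 was at -6.07, -6.36 and -6.49 at 1 nM and -6.57, -5.95 and -7.85 at 10 nM, with no call (adjusted p = 0.753), and Ucp1 was not above background on any dose array. The summed signal of the list was 4.76 to 4.92 at 1 nM, 5.04 to 5.11 at 10 nM and 3.34 to 3.62 in vehicle; its part in the metabolic results that follow was not tested.

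Among genes of triglyceride synthesis and storage 4 of 29 were higher and 3 lower (2 and 1 without 10 nM replicate 3; 2 and 1 in the core; median 0.05). Lpl, which frees fatty acids from lipoproteins, was 1.87-fold higher (0.70, 0.70 and 0.72 to 1.65, 1.5 and 1.67; log2 difference 0.90, SE 0.066, adjusted p = 0.0024). Dgat1, the last enzyme of triglyceride synthesis, was 1.65-fold higher (log2 difference 0.72, SE 0.069, adjusted p = 0.00566). G0s2, an inhibitor of lipolysis, was 2.03-fold lower (0.06, 0.11 and -0.04 to -0.89, -0.99 and -1.06; log2 difference -1.02, SE 0.074, adjusted p = 0.00229). Of 29 insulin and IGF signalling genes 8 were higher and 4 lower, but 4 and 1 without 10 nM replicate 3 and 3 and 1 in the core (median 0.14). Tbc1d4, which controls the movement of the glucose transporter Glut4 to the membrane, was at -0.62, -0.59 and -0.53 at 1 nM and 0.76, 0.90 and 1.02 at 10 nM, 2.78-fold higher (log2 difference 1.47, SE 0.082, adjusted p = 0.00137). The insulin-signalling kinase Akt2 rose 1.44-fold (log2 difference 0.53, SE 0.059, adjusted p = 0.00841, but 0.127 with array median scaling).

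Most contractile and energy genes lay within the margin, as did 60.5% of all genes. Of 49 sarcomere genes 44 lay within the margin, and the 1 higher and 1 lower call were both lost without 10 nM replicate 3 and with the replicate block. Ttn, titin, was 1.26-fold higher (adjusted p = 0.0192, 0.0614 with the block and 0.0649 to 0.104 without each array) and Csrp3, a Z-disc protein, 1.30-fold lower (adjusted p = 0.0368, 0.054 and 0.0782 to 0.162). For Acta1 the interval was -0.23 to 0.19, for Ckm, muscle creatine kinase, -0.37 to 0.16 and for Myh3 -0.08 to 0.23. Of 28 calcium handling genes 21 lay within the margin, and none of the 1 higher and 2 lower calls passed with the block (1 and 0 without 10 nM replicate 3).

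Of 54 oxidative phosphorylation genes 47 lay within the margin and 1 was called, yet 53 of the 54 differences were above 0, with a median of 0.21 (0.19 to 0.24 under the other scalings, 0.28 and 0.18 within slides 1 and 2), against -0.01 over all genes. Cox7a1, the muscle isoform of a cytochrome oxidase subunit, was the called gene, at 1.56, 1.83 and 1.63 at 1 nM and 3.01, 2.89 and 2.88 at 10 nM, 2.38-fold higher (log2 difference 1.25, SE 0.092, adjusted p = 0.0024). Cox4i1, a subunit of the same enzyme, differed by 0.14 (-0.07 to 0.36) and Atp5b, of the ATP synthase, by 0.17 (-0.06 to 0.41). Of 33 genes of fatty acid oxidation 26 lay within the margin, with 3 higher and 1 lower (0 and 1 without 10 nM replicate 3, none in the core), and of 26 genes of glycolysis 22 did, with 2 higher and 1 lower (1 and 0). Among cholesterol synthesis genes 22 of 25 lay within the margin, and 3 were called higher (1 without 10 nM replicate 3), of which Hsd17b7 (1.46-fold, log2 difference 0.54, SE 0.056, adjusted p = 0.00667) belonged to the core.

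Myogenic factors were mixed. Of 27 measured, 19 lay within the margin, 4 were higher and 1 was lower (1 and 0 without 10 nM replicate 3). Ankrd2, a stretch-responsive muscle protein, was at 2.52, 2.49 and 2.47 at 1 nM and 3.55, 3.37 and 3.46 at 10 nM, 1.96-fold higher (log2 difference 0.97, SE 0.065, adjusted p = 0.00186). Myod1 differed by 0.23 (0.02 to 0.44) and Myog by -0.29 (-0.45 to -0.13), and neither was called (adjusted p = 0.244 and 0.0693). The plot of the 34 lists shows the narrow spread of these groups beside the wide spread of matrix genes and chemokines.

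**Figure D3:**
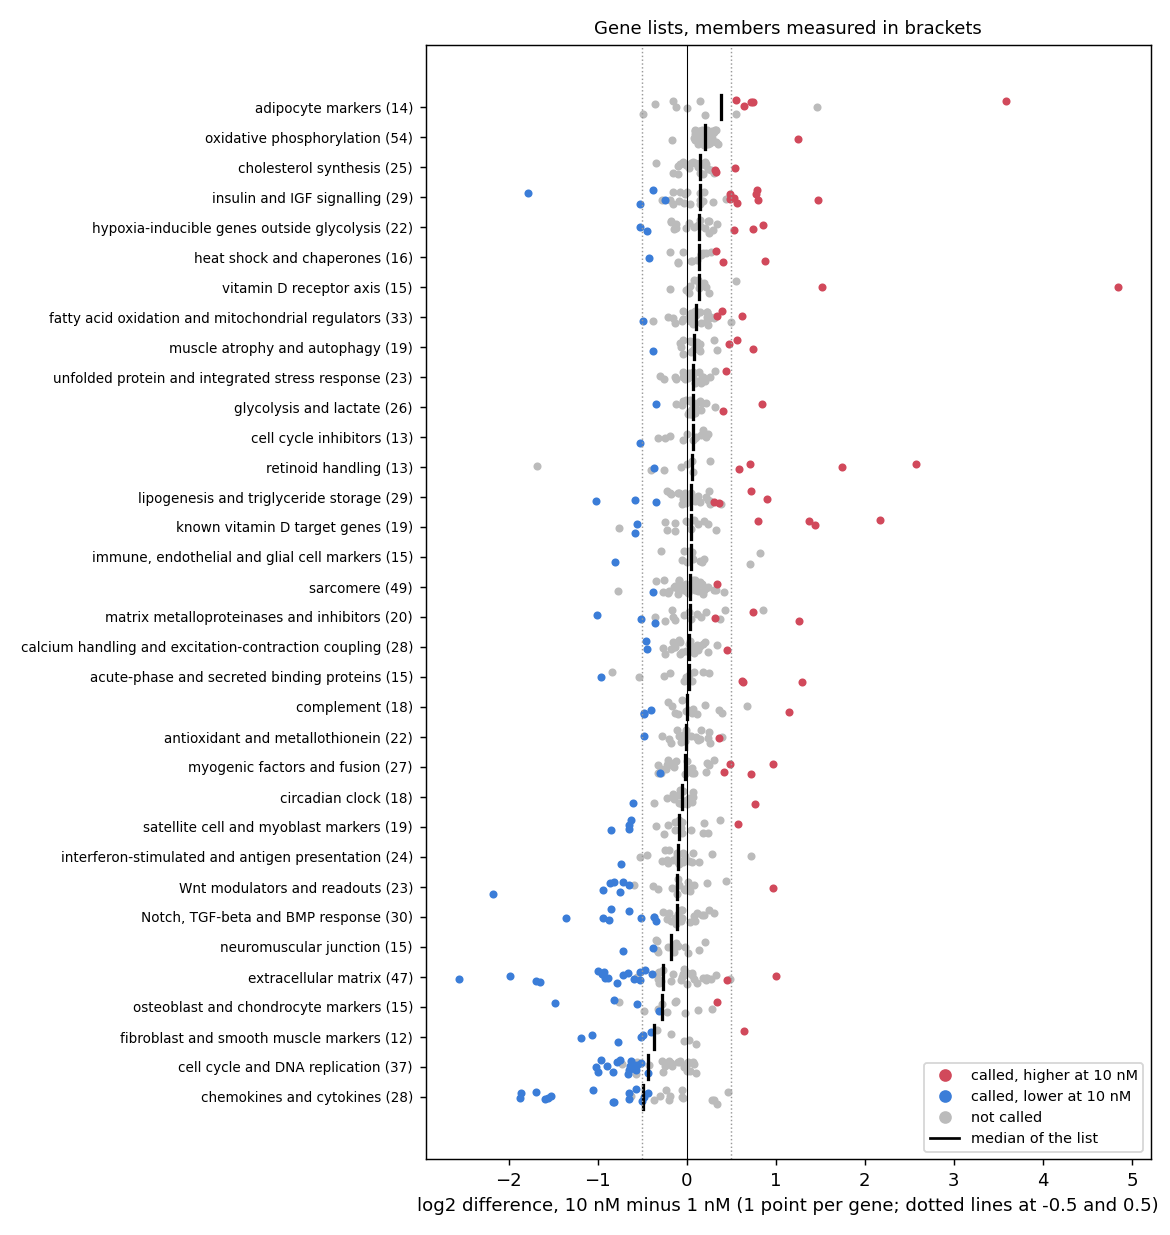
Log2 difference, 10 nM minus 1 nM, of every measured member of 34 gene lists, 1 point per gene, with the list's median as a black bar and dotted lines at the margin of 0.5 either side of 0. Medians run from -0.49 for chemokines and cytokines to 0.38 for adipocyte markers, while 44 of 49 sarcomere genes and 47 of 54 oxidative phosphorylation genes have intervals within the margin.

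The remaining lists held 1 to 5 calls each, from 4.35% of measured members for the unfolded protein response to 22.7% for hypoxia and 25% for chaperones, beside 6.47% over all genes. Of 22 hypoxia-inducible genes 3 were higher and 2 lower (median 0.14). Vegfa, which drives vessel growth, was 1.67-fold higher (3.49, 3.64 and 3.65 to 4.23, 4.42 and 4.36; log2 difference 0.74, SE 0.080, adjusted p = 0.00753). Ddit4, an inhibitor of mTORC1, was at 3.68, 3.63 and 3.72 in vehicle, 2.71, 2.89 and 2.86 at 1 nM and 3.61, 3.72 and 3.69 at 10 nM, so that the 10 nM samples lay at the vehicle level and 1.81-fold above 1 nM (log2 difference 0.85, SE 0.072, adjusted p = 0.0037). The glycolytic regulator Pfkfb3 was also lowest at 1 nM, but its 10 nM samples lay above vehicle. It was at -0.63, -0.69 and -0.57 in vehicle, -1.33, -1.27 and -1.24 at 1 nM and -0.50, -0.46 and -0.34 at 10 nM (1.8-fold higher between the doses, log2 difference 0.85, SE 0.068, adjusted p = 0.00302). In the circadian list 1 of 18 was higher, Hlf (1.70-fold, adjusted p = 0.00999), and 1 lower. Of 23 genes of the unfolded protein response 21 lay within the margin and 1 was called, Creld2 (adjusted p = 0.0328, 0.0586 with the replicate block). The counts were 3 higher and 1 lower of 16 for chaperones (1 and 0 with the block), 1 and 1 of 22 for antioxidant genes (none with the block), 3 and 1 of 19 for atrophy genes (21.1% called; 1 and 0 without 10 nM replicate 3), and 0 and 2 of 15 for the neuromuscular junction (13.3%; none with the block).

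Complement and acute-phase genes divided within their lists. Of 18 complement genes 1 was higher and 3 lower (1 and 1 without 10 nM replicate 3). C3, the central complement protein, was at -3.28, -3.65 and -3.12 in vehicle, 2.93, 2.84 and 2.73 at 1 nM and 3.94, 3.95 and 4.06 at 10 nM, 2.21-fold higher between the doses (log2 difference 1.15, SE 0.076, adjusted p = 0.00185). Cfb, its partner in the alternative pathway, was at -4.21, -4.31 and -4.20 in vehicle, 1.90, 1.72 and 1.83 at 1 nM and 1.99, 1.90 and 2.19 at 10 nM, and its dose difference of 0.21 had an interval of -0.04 to 0.45. So C3 still moved between the doses and Cfb lay within the margin. Of 15 acute-phase and secreted binding proteins 3 were higher and 1 lower (3 and 0 without 10 nM replicate 3). Hp, haptoglobin, rose 2.46-fold (0.65, 0.62 and 0.62 to 1.84, 1.94 and 2.00; log2 difference 1.30, SE 0.062, adjusted p = 0.000962), and Rarres2, the chemoattractant chemerin, 1.53-fold (log2 difference 0.62, SE 0.071, adjusted p = 0.0088), while Orm2, an orosomucoid, had an interval of 0.06 to 0.44. The orosomucoid genes are near copies whose probes may share signal, so their values are uncertain one by one.

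Other genes that stood far from vehicle at 1 nM also lay within the margin between the doses. High at both doses were Slco1a5, an organic anion transporter, at -5.04, -6.05 and -4.18 in vehicle, -0.34, -0.30 and -0.32 at 1 nM and -0.21, -0.29 and -0.22 at 10 nM (interval -0.05 to 0.21), and Csf2rb, the shared chain of the IL-3, IL-5 and GM-CSF receptors, with an interval of -0.25 to 0.15. Csf2rb2, a close copy of Csf2rb, had -0.19 to 0.27, and the pair may share signal. Krt17, a keratin, Xdh, xanthine dehydrogenase, and Grb14, an adaptor that inhibits the insulin receptor, had intervals of -0.39 to -0.05, -0.38 to 0.23 and 0.11 to 0.48. Grb14 was at -2.15, -2.29 and -2.08 in vehicle, 2.19, 2.05 and 1.96 at 1 nM and 2.36, 2.39 and 2.34 at 10 nM.

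Low at both doses were Cdhr1, a cadherin family member, at -0.03, 0.42 and -0.31 in vehicle, -4.39, -4.25 and -4.46 at 1 nM and -4.27, -4.35 and -4.23 at 10 nM (interval -0.11 to 0.27), and Ano1, a calcium-activated chloride channel, at -0.28, -0.14 and -0.37 in vehicle, -4.29, -4.29 and -4.64 at 1 nM and -4.45, -4.64 and -4.63 at 10 nM (-0.47 to 0.13). The mitotic genes Cdkn3, Nsl1, Spc24 and Cenpp belonged here too, with intervals of -0.48 to -0.01, -0.12 to 0.32, -0.50 to -0.01 and -0.44 to 0.08, as did Arhgef39 (-0.45 to 0.10) and the histone gene H2ac11 (-0.42 to -0.07), whose family members may share signal. These cell cycle genes were picked for lying within the margin, and Mki67 and Bub1b for being called lower, so the contrast follows from the choice. The intervals of Cdkn3, Spc24 and H2ac11 were wholly negative. The comparisons with vehicle share the 1 nM arrays with the dose comparison, so the levels are given side by side and no test joins them.

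**Figure D4:**
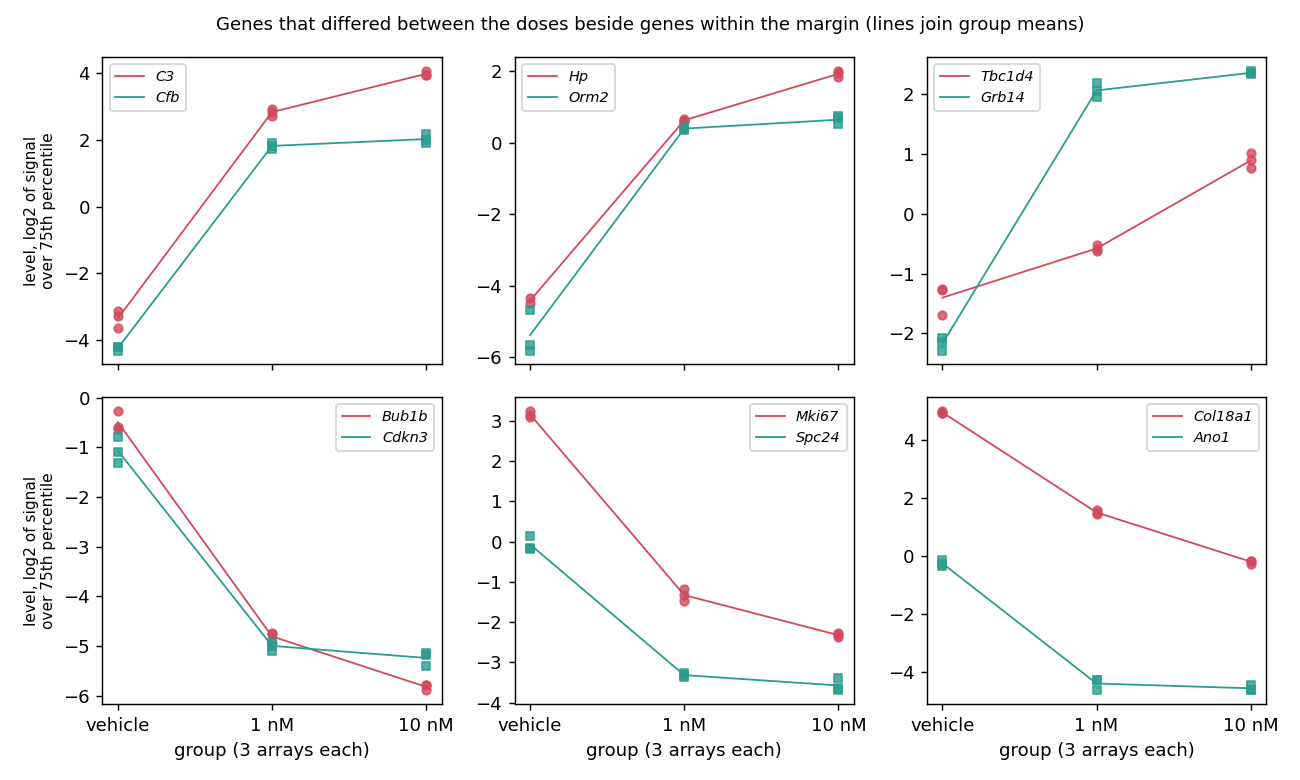
Level of each sample (vertical axis, log2 of signal over the array's 75th percentile) in vehicle, 1 nM and 10 nM, with lines through the group means, for 6 pairs of a gene that differed between the doses (circles) and a gene within the margin (squares). The genes of both kinds were picked for these traits. C3 goes on from between 2.73 and 2.93 at 1 nM to between 3.94 and 4.06 at 10 nM, while Cfb stays between 1.72 and 2.19 on all 6 dose arrays.

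Dynap, among the 15 lowest genes, turned between the doses. It was at 2.38, 1.95 and 2.34 in vehicle, 2.90, 2.99 and 3.08 at 1 nM and 0.99, 1.13 and 1.05 at 10 nM, 3.83-fold lower between the doses (log2 difference -1.94, SE 0.074, adjusted p = 0.000712), so 1 nM lay above vehicle and 10 nM below it in every sample.

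Promoters of the named genes were searched for a direct repeat of the half-site AGGTCA or AGTTCA with a spacer of 3 bases, the pattern of vitamin D response elements, on both strands and with up to 3 mismatches over the 12 half-site bases. The windows were RefSeq's GRCm38.p6 promoters of 300 bases, 250 before and 50 after each start. A match was found for 36.7% of 27025 genes. It was found for 3 of the 12 highest genes with a promoter in the table and for 3 of the 12 lowest. Of the genes within the margin that have a promoter there, 2 of 4 high and 0 of 6 low at both doses had a match. The windows are short and the pattern is loose, so the counts describe these letters and nothing about binding.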

How the data were processed

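Total RNA of 9 C2C12 samples was labelled with Cy3 and hybridised to 1-colour Agilent arrays, 3 samples per group per the labels. The deposited scanner files hold processed-signal, mean-signal and background intensity values, not logged. Per the submitters' processing notes the image software was Agilent Feature Extraction, version 11.5.1.1. Per the file headers, further columns mark control spots, non-uniform spots and spots above background with 0 or 1. A series table was also deposited, with log2 values for 30094 probes, and its columns correlated with normexp-corrected, quantile-normalized signals made here from the same arrays (scale log2, genes not centred) and were used only as an alternative. Probe positions are mm9 per the file headers.

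Control and non-uniform spots were left out, spots of a probe were averaged, and each array's 75th percentile was subtracted from the log2 processed signal. Of 39429 probes 27832 (70.6%) were well above background on all 3 arrays of a dose and were kept. The brightest kept probe over the 6 dose arrays represented its gene, giving 21515 genes; 58 of these lacked a value on at least 1 dose array and were fitted on the rest. Names came from a RefSeq table of GRCm38.p6 by accession (20699 kept probes) or symbol (2312), otherwise from the files (4821). A near-identical gene copy can share a probe's signal.

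The doses were compared with limma (version 3.58.1, under R version 4.3.3; lmFit, then eBayes) on the 6 dose arrays with no block, and p-values were adjusted by the Benjamini-Hochberg method over all genes; p under 0.05 was a call. Adjusted p-values in the text come from that fit unless a block or a left-out array is named. A gene counted as within the margin where the 95% interval lay within 0.5 of 0. A bound fold sets the mean of the bright group against the lowest signal well above background on each array of the dim group. It holds for the processed signal only, and other settings gave smaller differences. The script was tested on simulated data.

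Named genes were the 15 highest and 15 lowest called genes without overlap between the groups, from each list the called members of smallest p, at most 4 (2 members where none was called), Cyp24a1 and Vdr, and the 8 highest and 8 lowest at 1 nM against vehicle among genes within the margin; genes outside this rule are listed in the text as picked after their values were seen. Not every gene that the rule picked is reported here. Members, lists and rules were chosen with earlier results of these data known, so a list's direction is a description. Same-numbered replicates of the doses deviated together (r = 0.478, 0.339 and 0.13 over genes), each above 0.1. This pairing comes from these data, not from the labels. The main fit had no block, so its intervals and p-values leave the pairing aside. With the replicate block as an alternative, 722 of the 1393 calls kept their call and direction. The 1 nM replicate 3 correlated more with 10 nM replicate 2 on its slide (r = 0.296), while the other unlike numbers gave -0.462 to 0.0207, so number and slide cannot be told apart. Alternatives were the replicate and slide blocks, within-slide values, other scalings, filters and probe rules, the fit with the vehicle arrays and each array left out. RefSeq promoters were of GRCm38.p6.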

Additional observations from a re-analysis of the deposited data

How the results depend on the processing

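The count of 1393 called genes fell under most alternatives. For all 1393 the levels of the doses did not overlap, so the choice of calls fixes their direction when an array is left out, within a slide or with the replicate block; 2 changed direction when a gene's kept probes were averaged. The count was 847 in the fit of all 9 arrays, 771 with the replicate block, 43 within slide 1, 76 within slide 2, 561 with array median scaling, 775 with no filter on dim probes, 492 at an adjusted p of 0.01, 210 with at least a 2-fold difference, and 440 when tested against a fold of 1.2. Leaving out 1 array gave 478 (without 1 nM replicate 2) to 798 (without 10 nM replicate 1). Other scalings, the slide block, probe filters and variance settings gave 1053 to 1676. The replicate block on replicates 1 and 2 alone, added after seeing the data, gave 3. The replicate block ended the calls of 29 of the 125 called genes that the naming rule took, Nppc, Ttn, Csrp3 and Creld2 among them, and changed no other call in that set. Array median scaling ended the calls of 45 of the 125. The within-margin count of 13010 was 4627 with a margin of 0.25, 18550 with a margin of 1, and 11544 to 13440 without 1 array. The core of 397 genes and the list counts without 10 nM replicate 3 were also chosen after seeing the data. Tests with 3 arrays per group and probes near background limit what can be called: of the 7267 undecided genes neither a difference nor its absence can be stated.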
